A study of Homo sapiens with 4 samples.

Results

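The surface of a T cell carries coreceptors and costimulatory molecules that decide how an antigen signal is read. CD4 and the CD8 chains bind MHC molecules beside the T-cell receptor and carry the kinase LCK to it. CD28 and CD2 add signals of their own, CD5 and CD6 tune the strength of the response, and the phosphatase CD45, encoded by PTPRC, keeps LCK ready to act. The set described here is 10 such genes, CD2, CD4, CD5, CD6, CD7, CD8A, CD8B, CD28, CD69 and PTPRC. They were taken by gene name from the 26733 genes of the table, and all 10 had a row.

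RNA was measured in Jurkat cells, an established line from a human T-cell acute lymphoblastic leukaemia, with GNE987 (2 libraries, labelled 25 nmol with no volume, 24 h) and without treatment (2 libraries). GNE987 is a small molecule that brings BET bromodomain proteins, readers of acetylated chromatin, to the VHL ubiquitin ligase for degradation. The cells are a leukaemic line and not normal T cells, and no source used here says whether the libraries of a group came from separate cultures. P-values therefore rest only on spread between these libraries, which may be technical. The test sets the spread of each gene partly from that of the other genes tested. Total counts were 17024157 and 16041022 with GNE987 and 18938465 and 18441248 without it. In much of the table untreated replicate 2 was displaced toward the treated pair, so values without it are given where they matter.

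Levels are given as CPM, counts scaled to the library total and by TMM factors. They are relative to the other genes of a library, and the amount of RNA per cell was not measured. A rise or fall here is thus not a change in transcripts per cell. Changes are log2 fold changes of GNE987 over untreated with their standard error, and adjusted p-values come from the quasi-likelihood test of edgeR over 15910 genes. Between genes, levels are compared only as the authors' FPKM, which is per transcript length. At a threshold of 0.05 on the adjusted p, 71.6% of all tested genes were called, 34.4% higher and 37.2% lower with GNE987. With library size alone as the scaling, 36.4% of the called genes were higher, against 48.0% with TMM, and the median of all genes moved by -0.37 on the log2 scale.

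Among the 10 genes, 6 fell (CD2, CD28, CD5, CD6, PTPRC and CD8B), 3 rose (CD4, CD69 and CD7) and CD8A did not pass the test. The background was 37.2% lower, 34.4% higher and 71.6% called in either direction, against 9 of the 10 genes. The median log2 fold change was -1.58, against -0.03 over all genes tested. The libraries of the groups did not overlap in CPM for any of the 10 genes, 6 below and 4 above (CD8A among these), which was also true of 91.1% of all tested genes, 46.6% below and 44.6% above. All 10 passed the filter on low counts, CD2 and CD8B through the untreated libraries alone. A call of CD2 or CD8B could thus only be a fall, and both are in the counts and the median above. The filter set no such limit on CD28, CD5, CD6 and PTPRC, which also fell. In bulk RNA, fewer cells that express a gene and less of its RNA in each cell cannot be told apart.

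**Figure D1:**
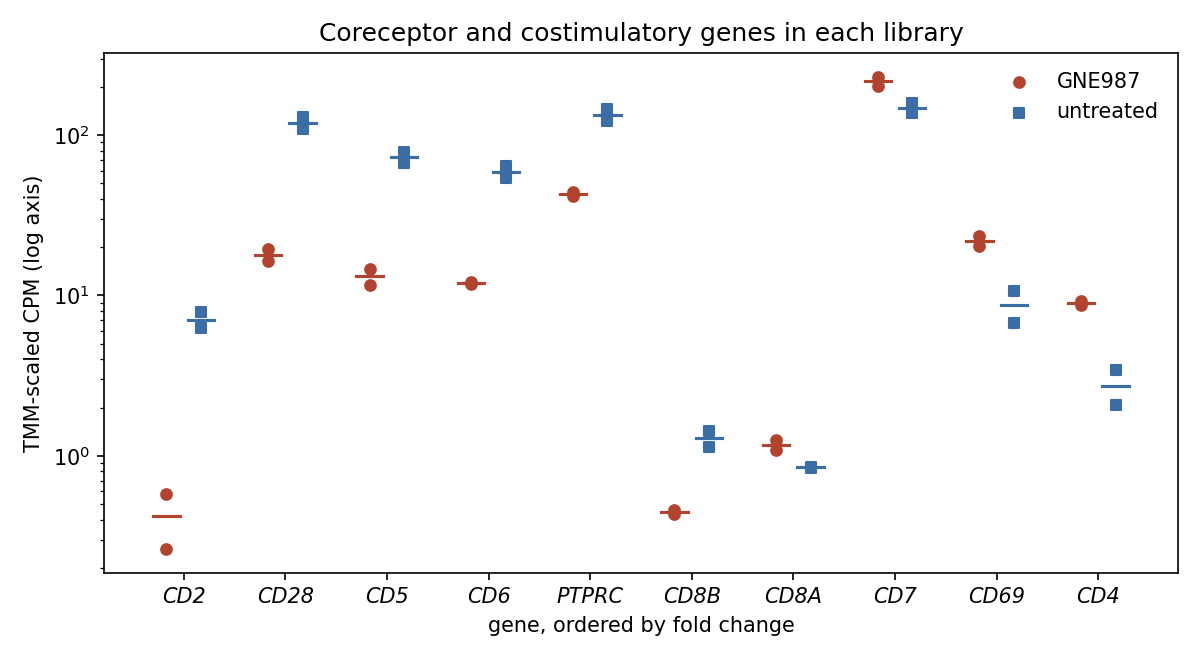
TMM-scaled CPM (log axis) of the 10 genes in each of the 4 libraries, with circles for GNE987, squares for untreated cells and a bar at each group's mean. CD2, CD28, CD5, CD6, PTPRC and CD8B are lower in both treated libraries, CD4, CD69 and CD7 are higher, and the CD8A points lie close together, at 1.25 and 1.09 CPM with GNE987 and 0.853 and 0.839 CPM without it.

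CD28 and CD2, the costimulatory receptors of the set, both fell, and their fitted log2 fold changes were the lowest of the 10. CD28, the receptor of CD80 and CD86 that delivers the main costimulatory signal, was at 19.4 and 16.5 CPM with GNE987, against 129 and 109 CPM in untreated cells. Both treated libraries were far below both untreated ones. It fell by 2.73 ± 0.16 on the log2 scale, a level 6.64-fold lower with GNE987 (adjusted p = 0.000298). CD28 lies on chromosome 2 from 203706475 to 203738912 on the plus strand (GRCh38).

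CD2, an adhesion receptor that binds CD58 on the partner cell, had 4 and 8 counts in the treated libraries, against 176 and 126 counts in the untreated ones. In CPM this was 0.263 and 0.580 with GNE987, against 7.90 and 6.22 without it. The treated level was close to the 3 counts taken as the floor, which equal 0.197 and 0.217 CPM there. It fell by 4.06 ± 0.44 on the log2 scale (adjusted p = 0.00115), and 1.70% of the tested genes had a lower log2 fold change. The size of this fall rested on few reads. The log2 fold change was -4.72 without GNE987 replicate 2 and -3.59 without GNE987 replicate 1. CD2 lies on chromosome 1 from 116754385 to 116769228 on the plus strand.

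CD5 and CD6, neighbouring genes of the scavenger receptor family that restrain and shape T-cell receptor signals, both fell. CD5 was at 14.7 and 11.7 CPM with GNE987, against 78.1 and 66.9 CPM in untreated cells, and fell by 2.46 ± 0.17 (adjusted p = 0.000372). CD6 was at 12.1 and 11.8 CPM with GNE987, against 64.0 and 54.0 CPM in untreated cells, and fell by 2.30 ± 0.14 (adjusted p = 0.000316). For neither gene did a treated library come near an untreated one. The log2 ratio of CD5 to CD6 counts within a library, which does not depend on scaling, averaged 0.13 with GNE987 and 0.30 without it. By library it was 0.284 and -0.018 with GNE987, against 0.287 and 0.309 without it. GNE987 replicate 1 was thus close to the untreated libraries. The difference of -0.17 had an exact two-sided permutation p of 0.333, which is the smallest that 2 libraries against 2 can give. CD6 spans 60971680 to 61020377 and CD5 spans 61102395 to 61127852 on chromosome 11, both on the plus strand, with 82017 bp between them.

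PTPRC encodes CD45, the phosphatase that removes the inhibitory phosphate from LCK and is found on all nucleated blood cells. It was at 41.6 and 44.4 CPM with GNE987, against 146 and 122 CPM in untreated cells. The treated libraries were close to each other and below both untreated ones. PTPRC fell by 1.64 ± 0.14 on the log2 scale, a 3.12-fold lower level (adjusted p = 0.000554). PTPRC keeps or skips exons as T cells mature, and counts per gene do not show which isoforms were made. The gene runs from 198638457 to 198757476 on chromosome 1, plus strand.

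RefSeq promoter windows, 250 bases before to 50 bases after a start site, were at hand for 4 of the 10 genes, with 4 windows for CD8A. Those of the 3 genes that fell are shown because all 3 transcripts fell; each is written 5′ to 3′ on the strand of the gene (GRCh38.p14). Capitals mark matches, on either strand, to CANNTG (the E-box, a site of basic helix-loop-helix factors such as TAL1, TCF12 and MYC) or TGTGGT (the RUNX site).
CD2, chr1:116754180-116754479, plus strand: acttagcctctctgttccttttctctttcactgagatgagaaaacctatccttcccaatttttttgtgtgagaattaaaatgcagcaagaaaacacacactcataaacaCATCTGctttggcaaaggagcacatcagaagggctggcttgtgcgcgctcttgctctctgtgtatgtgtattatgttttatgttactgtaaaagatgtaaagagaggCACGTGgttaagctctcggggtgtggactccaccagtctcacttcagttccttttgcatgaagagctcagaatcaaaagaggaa
CD28, chr2:203706389-203706688, plus strand: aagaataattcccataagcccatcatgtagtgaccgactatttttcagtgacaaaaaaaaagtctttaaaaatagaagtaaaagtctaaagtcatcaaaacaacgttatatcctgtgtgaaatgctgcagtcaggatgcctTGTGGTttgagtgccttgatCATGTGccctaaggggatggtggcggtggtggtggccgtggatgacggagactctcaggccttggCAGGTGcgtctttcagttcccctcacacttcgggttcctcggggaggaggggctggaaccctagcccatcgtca
PTPRC, chr1:198638790-198639089, plus strand: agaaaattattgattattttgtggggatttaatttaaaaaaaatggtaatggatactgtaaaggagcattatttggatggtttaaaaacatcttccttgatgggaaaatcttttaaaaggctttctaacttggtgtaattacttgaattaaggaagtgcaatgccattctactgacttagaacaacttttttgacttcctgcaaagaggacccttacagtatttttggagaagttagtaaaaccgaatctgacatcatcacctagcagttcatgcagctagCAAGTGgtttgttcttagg
The start site of a window is not the first base of the gene in GENCODE, which is the start given above; it lies 45 bases past that base for CD2, 164 for CD28 and 583 for PTPRC. The CD2 window held E-box letters beginning 141 and 34 bases before its start site, the nearer of them being CACGTG. The CD28 window held the RUNX letters 109 bases before its start site and E-boxes at 89 and 24 bases before it. The PTPRC window held a single E-box, which begins at base 32 counted from its start site. Of these matches only the farther E-box of CD2 lies before the gene's first base in GENCODE; the others begin 11 bases past it in CD2, 55, 75 and 140 in CD28 and 614 in PTPRC. The 7 windows at hand come from 4 genes, and 4 of them belong to CD8A, which did not pass the test and is not shown. E-box letters were in 6 of the 7 windows and in 68.7% of all 35116 windows of this length. RUNX letters were in 1 of 7 and in 13.1%. The letters of the TATA box, TATAAA, were in 0 of 7 windows and in 11.5% of all windows. Those of an ETS site, CCGGAA, were in 0 of 7 and in 17.2%. The 4 motifs do not overlap in the windows shown. A match describes letters and not a bound site.

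The coreceptors went different ways. CD4, which binds MHC class II, had 140 and 121 counts with GNE987, against 46 and 69 counts in untreated cells. In CPM it was at 9.19 and 8.77 with GNE987, against 2.07 and 3.41 without it. Both treated libraries were above both untreated ones, and the untreated libraries differed more from each other than the treated ones did. CD4 rose by 1.72 ± 0.31, a 3.29-fold higher level (adjusted p = 0.00562), and by 2.17 without untreated replicate 2. The myeloid markers checked also summed to more with GNE987, at 156 and 159 CPM, against 14.4 and 43.2 CPM in untreated cells. A higher sum was not particular to them. The B-cell markers summed to 101 and 112 CPM, against 73.9 and 79.3 CPM. Erythroid and megakaryocyte markers summed to 8.53 and 8.12 CPM, against 0.629 and 0.889 CPM. Fibroblast markers also summed to more, and the T-cell, NK-cell and epithelial markers to less. CD4 lies on chromosome 12 from 6786858 to 6820808 on the plus strand.

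CD8A, the chain that forms CD8 homodimers and binds MHC class I, had 19 and 15 counts with GNE987, against 19 and 17 counts in untreated cells. Its log2 fold change was 0.46 ± 0.40 with a 95% interval from -0.54 to 1.46 (adjusted p = 0.332), so at this depth a moderate rise or fall was not detectable. CD8B, the partner chain of the CD8 heterodimer, had 7 and 6 counts with GNE987, against 32 and 23 counts without it. The groups were apart, at 0.460 and 0.435 CPM with GNE987, against 1.44 and 1.14 CPM in untreated cells. It fell by 1.51 ± 0.45 (adjusted p = 0.0286). The call did not hold with the Wald test of DESeq2 (adjusted p = 0.158), without either treated library (0.138 and 0.146) or without untreated replicate 1 (0.0504). CD8B2, a near-identical copy of CD8B, had 4 counts in GNE987 replicate 1 and 0 in the other libraries, and reads of the copies may be shared.

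Within each library the log2 ratio of CD8A to CD8B counts was 1.44 and 1.32 with GNE987, against -0.75 and -0.44 in untreated cells. CD8A thus had more reads than CD8B in the treated libraries and fewer in the untreated ones. The difference was 1.98 (exact two-sided permutation p = 0.333, the smallest possible). The log2 ratio of CD4 to CD8A counts was 2.88 and 3.01 with GNE987, against 1.28 and 2.02 in untreated cells (difference 1.30, exact p = 0.333). It rested on 15 to 19 counts of CD8A. CD8A and CD8B lie on the minus strand of chromosome 2, at 86784610 to 86808396 and 86815339 to 86861924, with 6942 bp between them. An exonic stretch of 98 bp of CD8B is shared with the pseudogene ANAPC1P1 on the opposite strand, which had 1 or 2 counts in each library.

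CD69 and CD7 rose. CD69, a C-type lectin that appears early after activation and holds the receptor S1PR1 inside the cell, was at 23.5 and 20.2 CPM with GNE987, against 6.73 and 10.7 CPM in untreated cells. The treated libraries were above both untreated ones, and untreated replicate 2 was the nearer of these. The rise was 1.33 ± 0.25, a 2.52-fold higher level (adjusted p = 0.00652), and 1.75 without untreated replicate 2. It did not pass without GNE987 replicate 1 (adjusted p = 0.0591). S1PR1, which lets lymphocytes leave lymphoid organs, was at 0.525 and 0.870 CPM with GNE987, against 9.16 and 6.81 CPM in untreated cells, and fell by 3.52 ± 0.38 (adjusted p = 0.0012). CD69 lies on the minus strand of chromosome 12 from 9752486 to 9760901.

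CD7, an immunoglobulin superfamily receptor of early T and NK cells and a usual marker of T-cell leukaemia, had nearly equal counts in the libraries, 3064 and 3193 with GNE987, against 3068 and 3202 without it. After scaling it was at 201 and 231 CPM with GNE987, against 138 and 158 CPM in untreated cells. The rise of 0.55 ± 0.14 (adjusted p = 0.0185) was the smallest of the called changes and depended on the scaling. With library size alone it was 0.18 (adjusted p = 0.286), and with no filter on low counts it was 0.40 (adjusted p = 0.0669). The call was also lost when either treated library was left out (adjusted p = 0.0841 for GNE987 replicate 1 and 0.168 for GNE987 replicate 2). CD7 lies on the minus strand of chromosome 17 from 82314868 to 82317602.

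**Figure D2:**
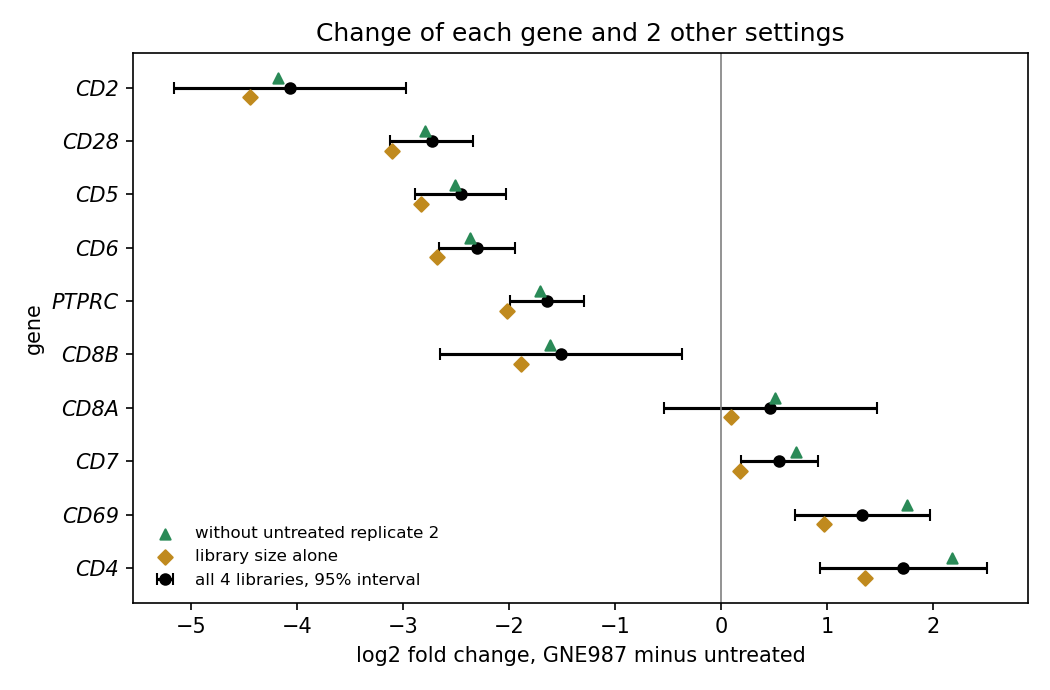
Log2 fold change of each gene, GNE987 minus untreated, with all 4 libraries (black, bars are 95% intervals), without untreated replicate 2 (triangles) and with library size alone as the scaling (diamonds). The direction is the same in all 3 settings for each gene, the diamonds lie to the left of the black points, and the CD8A interval from -0.54 to 1.46 spans 0.

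Untreated replicate 2 was displaced from untreated replicate 1 toward the treated libraries in 9 of the 10 genes. On the log2 scale, with untreated replicate 1 at 0% and the mean of the treated libraries at 100%, it stood at 39.1% for CD69, 34.1% for CD4 and 30.7% for CD7. For the 6 genes that fell it stood between 7.94% for CD2 and 20.1% for CD8B, and for CD8A at -5.14%. The 3 risers thus had the larger displacements.

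The order of the levels per transcript length also differed between the groups. With GNE987 the order by mean FPKM was CD7 (78.1 ± 7.93), CD69 (7.62 ± 0.79), PTPRC (4.63 ± 0.231), CD5 (4.04 ± 0.648), CD28 (3.62 ± 0.407), CD6 (1.98 ± 0.0261), CD4 (1.94 ± 0.0592), CD8A (0.317 ± 0.03), CD2 (0.248 ± 0.133) and CD8B (0.237 ± 0.00864; SD, n = 2). In untreated cells it was CD7 (53.4 ± 4.14), CD28 (24.1 ± 3.33), CD5 (22.2 ± 2.88), PTPRC (14.5 ± 2.08), CD6 (9.79 ± 1.37), CD2 (4.16 ± 0.781), CD69 (3.02 ± 0.909), CD8B (0.682 ± 0.126), CD4 (0.587 ± 0.193) and CD8A (0.23 ± 0.00719). CD7 led in both groups, and CD69 stood at place 2 with GNE987, against place 7 without it. With GNE987 the ranges of PTPRC and CD5, of CD5 and CD28, of CD6 and CD4, of CD8A and CD2 and of CD2 and CD8B overlapped. In untreated cells the same held for CD28 and CD5, CD2 and CD69, and CD8B and CD4. Within libraries, CD5 was above CD28 in both treated ones (4.50 against 3.91 and 3.59 against 3.33 FPKM). CD28 was above CD5 in both untreated ones (26.4 against 24.3 and 21.7 against 20.2 FPKM). CD6 was slightly above CD4 in both treated libraries (2.00 against 1.98 and 1.96 against 1.89 FPKM). The other overlapping pairs changed order between the libraries of their group. CD7 made up 73.8% and 78.1% of the summed FPKM of the 10 genes with GNE987, against 37.0% and 43.7% without it. Apart from CD7, the sum was 25.8 and 23.5 FPKM with GNE987, against 86.0 and 72.6 FPKM in untreated cells.

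Genes whose products bind the 10 on the outside moved both ways. Of 17 tested ligands and extracellular partners 8 rose and 6 fell, with a median of 0.47. For this list and those below, the shares over all tested genes were 34.4% higher and 37.2% lower. With library size alone that median was 0.11, and leaving out untreated replicate 2 gave 0.95. The CD2 ligand CD58 was at 1.77 and 0.87 CPM with GNE987, against 18.3 and 16.3 CPM without it, and fell by 3.69 ± 0.34 (adjusted p = 0.000721). CD48, a ligand of CD2 in rodents, fell by 3.95 ± 0.40, and IL16, a secreted ligand of CD4, by 1.60 ± 0.14. CD59, a complement regulator, rose by 1.86 ± 0.33. Among the MHC class I genes bound by CD8, HLA-B rose by 1.45 ± 0.24, HLA-C by 1.33 ± 0.23 and the light chain B2M by 1.57 ± 0.26. Without GNE987 replicate 2 the ligand list held 5 rises. Both ligands of CD28 were too low to test, CD80 at no more than 0.657 CPM and CD86 at no more than 0.788 CPM in any library.

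Inside the cell, 13 of 23 tested partners and signalling proteins of these receptors fell and 8 rose (median -0.93). LCK, the kinase carried by the tails of CD4 and CD8, was at 60.1 and 62.1 CPM with GNE987, against 951 and 783 CPM in untreated cells. Both treated libraries were far below either untreated one. GRAP2, the adaptor also called GADS, fell by 5.13 ± 0.25, the phosphatase PTPN6 by 4.69 ± 0.21, and SIT1, a transmembrane adaptor, by 4.25 ± 0.21 (adjusted p = 0.000292 to 0.000295). Members that rose included CBL, an E3 ligase, by 1.38 ± 0.14, PAG1, which anchors the LCK inhibitor CSK, by 1.57 ± 0.17, and FYN, a Src kinase like LCK, by 0.86 ± 0.12. CSK itself fell by 0.93 ± 0.12. GRB2 and PIK3R1 were among the genes that rose, by 1.17 ± 0.17 and 0.97 ± 0.14. The rises in this list numbered 5 when either treated library was left out, and the falls 12.

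Transcription factors that act at coreceptor and other T-cell loci fell in 17 of 24 tested cases and rose in 3 (median -1.06). The E-protein TCF12, a partner of TAL1 at E-boxes, fell by 3.07 ± 0.21. MYB fell by 3.03 ± 0.16, IKZF1 by 2.85 ± 0.17 and TCF7 by 2.15 ± 0.13. RUNX1 and RUNX3, which act at the CD4 and CD8 loci, had log2 fold changes of -0.09 ± 0.12 and -0.03 ± 0.12 (adjusted p = 0.53 and 0.813), and ZBTB7B, a factor of the CD4 lineage, of -0.94 ± 0.35 (adjusted p = 0.0528). The 3 that rose were EGR1, HHEX and GATA3. EGR1, an immediate early factor, was at 31.2 and 34.4 CPM with GNE987, against 0.673 and 7.60 CPM in untreated cells, and rose 8.01-fold (SE 0.88 on the log2 scale, adjusted p = 0.0267). The EGR1 call was lost with robust estimation (adjusted p = 0.122) and without GNE987 replicate 1 or 2 (adjusted p = 0.115 and 0.126), and its log2 fold change was 5.64 without untreated replicate 2. HHEX, a homeobox factor, was at 39.7 and 31.1 CPM with GNE987, against 2.11 and 7.41 CPM in untreated cells, and rose by 2.90 ± 0.55 (adjusted p = 0.00623). The HHEX call was lost without GNE987 replicate 1 (adjusted p = 0.0538). GATA3, which acts in CD4 cells, rose by 0.54 ± 0.13 (adjusted p = 0.0127), a call lost with library size alone (0.17, adjusted p = 0.295) and without either treated library. The rises in this list numbered 0 without GNE987 replicate 1 and 1 without GNE987 replicate 2. Of 10 proteins that govern the exon choice of PTPRC or bind its variable exons, 4 fell and 3 rose (median -0.11, and 0.09 with upper-quartile scaling). These counts were near the shares over all tested genes, 37.2% lower and 34.4% higher. Only 1 rise passed with library size alone or without either treated library. HNRNPLL, which promotes exon skipping in PTPRC, fell by 1.90 ± 0.17 and SFPQ rose by 2.22 ± 0.37.

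**Figure D3:**
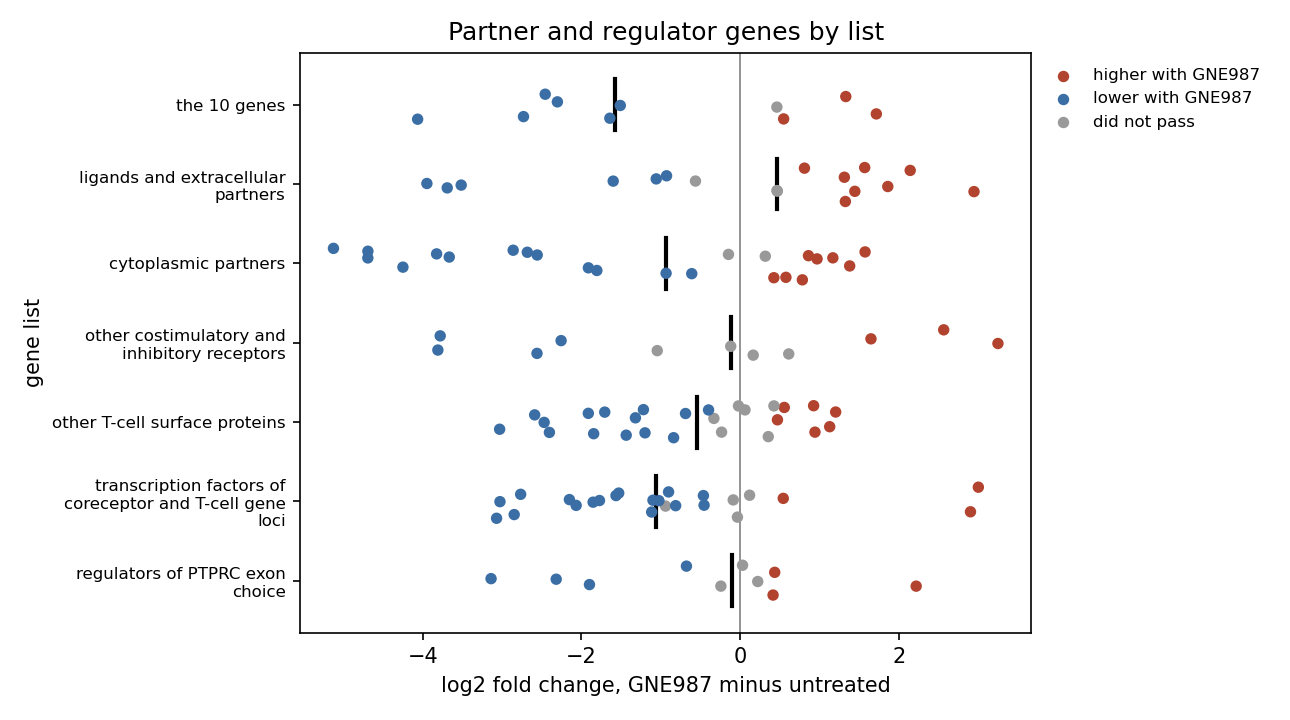
Log2 fold change, GNE987 minus untreated, of the 10 genes and of the tested genes of 6 lists of partners and regulators. Points are genes, coloured by call, and black bars are medians; the transcription factor list has 17 of 24 genes lower and the ligand list 8 of 17 higher.

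The nearest coding genes of the table on either side of the 10 were compared as well. These were 16 genes that are not in the set, of which 9 were tested. Of the tested ones 3 rose, 5 fell and 1 did not pass, with a median of -0.32. Over all tested genes 34.4% were higher and 37.2% lower, with a median of -0.03. LAG3 is an inhibitory receptor of the CD4 family with its end 8402 bp from CD4. It was at 1.58 and 1.30 CPM with GNE987, against 0.0449 and 0.444 CPM without it, and rose by 2.57 ± 0.81 (adjusted p = 0.0331). LAG3 passed the filter on low counts through the treated libraries alone, so a call could only be a rise. The LAG3 call was lost with the Wald test of DESeq2 (adjusted p = 0.0584) and without GNE987 replicate 1 or 2 (adjusted p = 0.185 and 0.142). GPR162, 736 bp beyond CD4 on the other side, had a log2 fold change of -0.03 ± 0.30 (adjusted p = 0.938). VPS37C, 2403 bp beyond CD5, fell by 0.85 ± 0.23, a call lost without GNE987 replicate 1 or 2 (adjusted p = 0.124 and 0.0682). IGSF3, 86629 bp before CD2, fell by 1.66 ± 0.19. RMND5A, 6568 bp from CD8A, and CSNK1D, 41136 bp from CD7, each rose by 1.49 (SE 0.21 and 0.22). CLEC2B, a lectin of the CD69 cluster 92082 bp away, fell by 2.46 ± 0.40 while CD69 rose. CLEC2B passed the filter on low counts through the untreated libraries alone, so a call could only be a fall. ICOS, a relative of CD28 and 197835 bp from it, had 2 and 4 counts with GNE987 and 8 and 2 counts without it and was not tested.

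**Figure D4:**
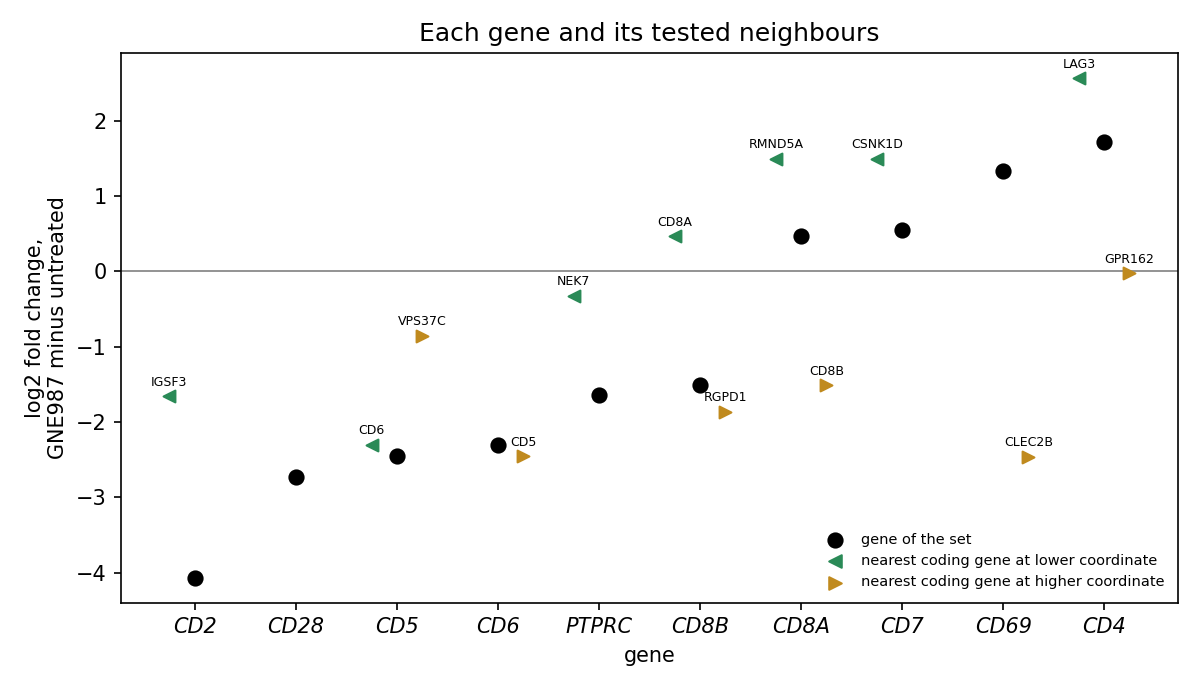
Log2 fold change, GNE987 minus untreated, of each of the 10 genes (black) and of the nearest coding genes at lower and higher coordinates where they were tested. CD5 and CD6, at -2.46 and -2.30, are each other's neighbour. CD4 at 1.72 stands between LAG3 at 2.57 and GPR162 at -0.03, and CD69 at 1.33 is above CLEC2B at -2.46. LAG3 passed the filter on low counts through the treated libraries alone and CLEC2B through the untreated ones.

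The label T cell was checked with 10 markers of the lineage, all of them tested; 7 fell and 0 rose (median -0.93), while 2 rose with the Wald test of DESeq2 or without untreated replicate 2. LCK, given above, fell by 3.83 ± 0.17, LAT by 2.68 ± 0.34, CD3G by 2.59 ± 0.16 and CD247 by 2.47 ± 0.14. CD3E was at 717 and 823 CPM with GNE987, against 507 and 639 CPM in untreated cells, and TRBC1 at 675 and 690 CPM, against 565 and 594 CPM; neither passed (adjusted p = 0.0688 and 0.139). CD4 and CD7 are also found on other blood cells, so markers of these are given beside their rises.

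Most of the treated myeloid sum given beside CD4 came from MPO, ITGAM and CD14. MPO was at 72.6 and 77.3 CPM with GNE987, against 0.0898 and 15.5 CPM without it (adjusted p = 0.0702), and ITGAM at 43.1 and 40.4 CPM, against 0.135 and 9.23 CPM (adjusted p = 0.0531). CD14 was at 24.0 and 26.5 CPM with GNE987, against 0.135 and 4.49 CPM, and rose by 3.47 ± 1.02 (adjusted p = 0.0272). All 3 were higher in both treated libraries than in either untreated one, and untreated replicate 2 was far above untreated replicate 1. Of the 6 tested myeloid markers 3 rose (CD14, LYZ and CSF1R) and 0 fell, with a median of 3.12. The rises numbered 0 without either treated library and 5 without either untreated one, and the median was 5.59 without untreated replicate 2. S100A9 was at 13.3 and 11.8 CPM with GNE987, against 13.3 and 12.8 CPM; CD33 was at 0 in both treated libraries and CD68 below 0.33 CPM in each. Of 3 tested NK-cell markers 1 rose (GNLY), and 0 without GNE987 replicate 2. That list summed to 16.8 and 22.9 CPM with GNE987, against 26.2 and 23.5 CPM without it, with NCR1 at 0 in both treated libraries. The part of such transcripts in the rises of CD4 and CD7 was not tested.

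The authors' deposited table gave 8 of the 10 genes an adjusted p under 0.05, against 37.3% of all its 26733 genes. That share counts the 10823 genes removed by the filter used here, which all 10 genes passed, so it is not a like background. Among the genes tested here 71.6% were called by the edgeR test. CD8B was listed there at a log2 fold change of -1.53 with an adjusted p of 0.168, and CD8A at 0.47 with 0.662. CD2 was listed at -4.09, CD28 at -2.73, CD4 at 1.72 and CD7 at 0.55 in the authors' deposited table.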

How the data were processed

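The authors made 4 libraries of polyadenylated RNA with the TruSeq RNA kit, per the labels' protocols; strand is not kept by this kit. Per the submitters' processing notes, reads were handled with HISAT2 2.2.0 on hg38; which counter and annotation were used is not stated in the labels. The authors deposited raw counts, a normalized signal (100% of values gave back the count within 0.01 when multiplied by 1 factor per library), FPKM, and their own log2 fold change with a p-value, whose test the labels do not name. All 26733 identifiers matched GENCODE 29 (GRCh38), the source of coordinates.

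Counts were tested with edgeR 4.0.16 in R 4.3.3 (filterByExpr with a minimum count of 10 and total of 15, a cutoff near 0.564 CPM; TMM; glmQLFit; glmQLFTest; 2 residual degrees of freedom), with Benjamini-Hochberg adjustment over 15910 genes and a threshold of 0.05. The SE is the size of the log2 fold change divided by the square root of F. The procedure was tested on simulated data with few changed genes and an equal spread in both groups. That setting differs from these data, where most genes were called and the untreated libraries differed more. The simulation therefore does not show how scaling and error rates behave here. The floor of 3 counts covers counting error only, since reads carry no molecular identifiers. The 10 genes and the partner lists were chosen with earlier results of these data known. Named genes are the 10, up to 4 genes per partner list with the smallest p, up to 3 per cell type list with the highest mean, nearest coding neighbours, and ligands or kinases of the 10; other list genes in the text were picked after their values were seen. Of the planned ratios, that of CD28 to CTLA4 was not analysed here. Alternatives were RLE (the factors of DESeq2 1.42.0), upper-quartile and library-size scaling, no filter, at least 10 CPM in at least 2 libraries, DESeq2's Wald test, robust estimation, a replicate block and each library left out.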

Additional observations from a re-analysis of the deposited data

How the results depend on the processing

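CD2, CD4, CD5, CD6, CD28 and PTPRC kept their direction and their call under every alternative that gave a value (11 or 12 each). The calls that did not hold are those of CD7, CD8B and CD69 given above, and no direction reversed among 116 values. With each library left out in turn, the number of changed genes was 6070 to 12921, the number of the 10 genes that were higher was 1 to 3 and the number lower was 5 or 6. Without GNE987 replicate 1 only CD4 passed among the 3 risers (adjusted p = 0.0492). A group left with 1 library is assumed to vary like the other group. The log2 ratio differences ranged from 1.82 to 2.13 for CD8A to CD8B, from -0.32 to -0.01 for CD5 to CD6 and from 0.93 to 1.67 for CD4 to CD8A. The filter of 10 CPM removed CD2, CD4, CD8A and CD8B, which then gave no value. Upper-quartile scaling moved the median of all genes by 0.20 on the log2 scale.

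The deviations of same-numbered libraries from their group means had a correlation of -0.00389. With 2 libraries a group these deviations mirror each other, so the value cannot settle whether the replicate numbers mark pairs. With the replicate number as a block 9801 genes changed in place of 11387; 3 of the 10 genes were higher and 5 lower, with CD8B at an adjusted p of 0.0912.

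Depth limits CD2 with GNE987 (4 and 8 counts), CD8A (15 to 19 counts) and CD8B (6 to 32 counts).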

Other observations

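Other costimulatory and inhibitory receptors were mostly at very low levels: of 20 with a row, 11 were tested, of which 4 fell and 3 rose (median -0.12, and 0.08 with upper-quartile scaling). The TNF receptors TNFRSF4 (OX40) and TNFRSF25 fell by 3.78 ± 0.18 and 3.81 ± 0.22, the inhibitory collagen receptor LAIR1 fell by 2.56 ± 0.14, and CD226, an activating receptor of nectin-like ligands, fell by 2.26 ± 0.26. BTLA, an inhibitory receptor, was at 13.4 and 10.7 CPM with GNE987, against 0 and 2.57 CPM in untreated cells (adjusted p = 0.0495). The 3 rises did not pass with the Wald test of DESeq2 or without either treated library. CD96 and CD27 had log2 fold changes of -0.12 ± 0.12 and 0.16 ± 0.43.

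Of 26 further tested surface proteins of T cells 14 fell and 6 rose (median -0.54); 3 rises passed when either treated library was left out. SELPLG, the ligand of P-selectin, fell by 3.03 ± 0.15 and the integrin chain ITGA4 by 2.40 ± 0.13. This list also holds the receptor chains CD247 and CD3G, given above as T-cell markers, which fell by 2.47 ± 0.14 and 2.59 ± 0.16. The tetraspanin CD81 rose by 1.20 ± 0.19 and CD99 by 1.13 ± 0.18. The large mucin SPN (CD43) fell by 0.69 ± 0.12, a call lost without GNE987 replicate 1 or 2 (adjusted p = 0.0719 and 0.0715), and the integrin chain ITGB1 had a log2 fold change of 0.06 ± 0.11.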
